A study of Homo sapiens with 12 samples.

Results

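The genes followed here are 9 genes of transforming growth factor beta (TGF-beta) and bone morphogenetic protein (BMP) signalling. They are ID1, ID2 and ID3 of the ID family, the negative regulators SMAD6, SMAD7, SKIL, SKI and TGIF1, and SMAD3, which carries the signal. They were listed by symbol, with earlier results of these data known, and found by their Ensembl identifiers; the rule itself uses no measured value. All 9 were among the 22379 gene rows of the table, and all 9 were among the 13811 genes that reached a mean value of 10 over the untreated libraries and were tested. They were measured in all 12 libraries of polyadenylated RNA, in 6 groups of 2 replicates.

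The cells were U2OS, a human osteosarcoma line. They had been transiently transfected with a plasmid that carries Cas9 and a guide RNA and then selected with puromycin, so each genotype was a pool of edited cells and not a clone. The guide was nontargeting (NONT) or aimed at NUP93, a scaffold protein of the nuclear pore (NUP93-KO), or at EXOSC5, a core subunit of the RNA exosome, which degrades RNA from its 3′ end (EXOSC5-KO). All groups, controls included, carried the Cas9 plasmid. Each genotype received DMSO (untreated) or 1 µM triptolide for 8 h. Triptolide binds XPB, the helicase of the general transcription factor TFIIH, blocks initiation by RNA polymerase II and leads to its degradation. The comparison asks how far each mRNA drops in cells that can no longer make it, and whether that drop differs where the pore or the exosome has been hit.

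TGF-beta and BMP ligands bring together type I and type II receptor kinases, which phosphorylate receptor-regulated SMADs; these bind SMAD4, enter the nucleus and switch on target genes. Among the first targets are genes that turn the pathway off again. SMAD7 and SMAD6 are inhibitory SMADs that block the receptors, the first broadly and the second mainly for BMP signals, and SKIL (SnoN) and SKI are corepressors that sit on SMAD complexes until they are degraded. TGIF1 is a homeobox corepressor of SMAD2 and SMAD3, and SMAD3 itself carries the TGF-beta signal. ID1, ID2 and ID3 are helix-loop-helix proteins without a DNA-binding region that capture E proteins and hold back differentiation, and they are classical BMP targets. Feedback genes of this kind are known for short-lived mRNAs, and U2OS cells are of mesenchymal origin and respond to both ligands.

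Sequence features of the 9 genes are shown first, because transcription and mRNA decay are what the drug separates. AU-rich elements, built around the pentamer ATTTA, are known to recruit decay factors to the 3′ untranslated region (3′ UTR). In the MANE Select transcripts of GENCODE release 44 (GRCh38), all 9 genes held at least 1 ATTTA in the 3′ UTR, as did 74.5% of 12784 tested genes with such a transcript. The density was highest in SKIL, with 23 copies in 4418 bases or 5.21 per kb, above 92.2% of those genes. It was 4.57 per kb in SMAD6, 3.83 in ID2, 3.19 in SKI, 2.94 in TGIF1, 2.40 in ID1, 1.97 in SMAD7, 1.94 in ID3 and 1.51 in SMAD3, and the median of the tested genes was 1.76 per kb. The longer nonamer TTATTTATT was in none of the 9 and in 9.93% of the tested genes. The sites of the 4 genes that held 3 or fewer are printed below with up to 10 bases on each side, read 5′ to 3′ on the strand of the mRNA with T for U and the pentamer in capitals. They lie in the last exon, at chr20:31606489-31606510 (plus strand) in ID1, at chr2:8683877-8683901, chr2:8684116-8684140 and chr2:8684397-8684421 (plus strand) in ID2, at chr1:23558051-23558075 (minus strand) in ID3, and at chr18:48920177-48920201, chr18:48920124-48920148 and chr18:48920040-48920064 (minus strand) in SMAD7.
ID1: taaacaaataATTTAgatggtg
ID2, first site: gatattcgttATTTAtgaaaaagac
ID2, second site: ctgtgtatatATTTAtatataaata
ID2, last site: acaagttcaaATTTAtgtagactgt
ID3: tgttgccctgATTTAtgaactctat
SMAD7, first site: ctcattggaaATTTAgcattgtagt
SMAD7, second site: aaaacctgagATTTAttaaagaaaa
SMAD7, last site: aagcatcattATTTAtgtattgtgc

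The 250 bases before the start of the MANE Select transcript were read from RefSeq promoter sequences (GRCh38) for 8 of the 9 genes. SKI had no entry. Both strands were searched for TATAAA (the TATA box), CCAAT (the CAAT box), GGCGCC (a GC-rich element bound by BMP SMADs), GTCTAGAC (the palindromic SMAD-binding sequence), TGACGTCA (the CREB site), CACGTG (an E box) and CAGAC (the CAGA box to which SMAD3 and SMAD4 bind). Those of 3 genes are printed as examples, 1 each with a TATA box, the SMAD palindrome and the CREB site: that of ID1 (chr20:31605039-31605288, plus strand) with TATAAA 31 bases before the start, overlapped by its copy on the other strand, and CCAAT on the minus strand, that of SMAD6 (chr15:66701986-66702235, plus strand) with GTCTAGAC 12 bases before the start, and that of SKIL (chr3:170357465-170357714, plus strand) with TGACGTCA 54 bases before the start and GGCGCC further upstream. Capitals mark these matches.
ID1: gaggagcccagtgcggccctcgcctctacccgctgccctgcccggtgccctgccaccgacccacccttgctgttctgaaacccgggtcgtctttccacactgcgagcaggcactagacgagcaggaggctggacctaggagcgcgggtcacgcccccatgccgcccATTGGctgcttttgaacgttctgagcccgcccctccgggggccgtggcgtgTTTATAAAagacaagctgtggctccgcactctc
SMAD6: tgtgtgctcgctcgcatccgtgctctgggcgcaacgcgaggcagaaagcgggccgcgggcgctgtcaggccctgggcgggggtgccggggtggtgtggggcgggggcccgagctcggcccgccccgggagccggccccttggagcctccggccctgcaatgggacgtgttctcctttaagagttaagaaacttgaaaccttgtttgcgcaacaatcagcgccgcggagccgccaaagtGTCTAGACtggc
SKIL: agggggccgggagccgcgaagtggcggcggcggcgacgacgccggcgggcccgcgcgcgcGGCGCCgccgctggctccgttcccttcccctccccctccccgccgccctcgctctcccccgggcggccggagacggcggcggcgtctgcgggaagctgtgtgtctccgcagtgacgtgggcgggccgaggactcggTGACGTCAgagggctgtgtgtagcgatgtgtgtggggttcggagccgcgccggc

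Of 35116 RefSeq promoters of the same length, 0.182% held GTCTAGAC, 1.65% held TGACGTCA, 10.7% held TATAAA and 16.4% held GGCGCC. The CAAT box CCAAT was in 32.0% of the promoters and occurred 3 times in that of ID2. CAGAC was in 38.0% of the promoters, and occurred 2 times before SMAD7 and once before ID3 and SKIL. SMAD3 held 2 copies of GGCGCC and 1 CACGTG, which was in 6.34% of promoters, and TGIF1 held none of the motifs. These matches describe the letters only.

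Facts of the whole series bear on what follows. The values are gene signals that the authors scaled to ERCC spike-in RNAs added in proportion to cell number, so a value follows mRNA per cell, and an error in the cell count or the spike-in moves a whole library. The approximate depth was 8.56 M to 11.92 M reads per library, and 1 read was worth a value of 0.49 to 1.76. The first NONT untreated replicate lay below the second over the tested genes, with a median difference of −0.51 on the log2 scale, and the other 5 groups differed between replicates by −0.14 to 0.25. The guides' own targets had lower values where the labels place them, without overlap: NUP93 was at 1395 and 1432 in untreated NUP93-KO against 1753 and 2489 in NONT (adjusted p = 0.926 in limma), and EXOSC5 at 216 and 148 in untreated EXOSC5-KO against 299 and 481 (adjusted p = 0.151). Neither difference passed the test across all genes, and indels need not lower an mRNA, so the extent of protein loss cannot be read from these values. The mesenchymal genes VIM, SPARC, COL1A1 and RUNX2 were present in every untreated library, COL1A2 was at 10.2 to 42.0 there, and TWIST1 was listed at 0 in all libraries. Of the epithelial genes, EPCAM was at 16.8 to 47.6 and CDH1 at 32.2 to 69.7 in untreated cells, and KRT19 at 4.62 or less. The endothelial gene VWF was at 14.9 to 74.0 there, PECAM1 at 9.99 or less and CDH5 at 3.02 or less. Of the blood genes, PTPRC was at 4.57 or less and CD14 at 3.08 or less in untreated cells, and HBB at 0.94 or less in all libraries.

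Triptolide took ID1, ID2, ID3, SMAD7 and TGIF1 to about 1% of their untreated level in NONT cells, SMAD6 to 2.07%, SKI to 4.92%, SMAD3 to 11.2% and SKIL to 12.3%. The median gene kept 31.4%. All 9 genes were lower in each of the 3 genotypes at an adjusted p under 0.05 (limma on log2(value + 1) with Benjamini-Hochberg adjustment over all genes tested), and in each genotype both untreated values lay above both triptolide values for all 9. Because the drug lowers most mRNAs on this scale, the call itself is common: the share of genes called lower was 90.0% in NONT, 55.1% with NUP93-KO and 64.3% with EXOSC5-KO, and the 2 sets of values were apart in the same direction for 94.8%, 79.1% and 88.0% of genes. On a scale that sets the median gene to no change (median of ratios), 30.3%, 29.7% and 28.7% of genes were called lower and 39.5%, 40.2% and 39.5% had values apart, and all 9 genes did both in each genotype. Calls in the other direction were made for 0.0507%, 0.138% and 0.0796% of genes on the spike-in scale and for 27.2%, 26.7% and 26.2% with median of ratios, and for 0 of the 9.

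**Figure D1:**
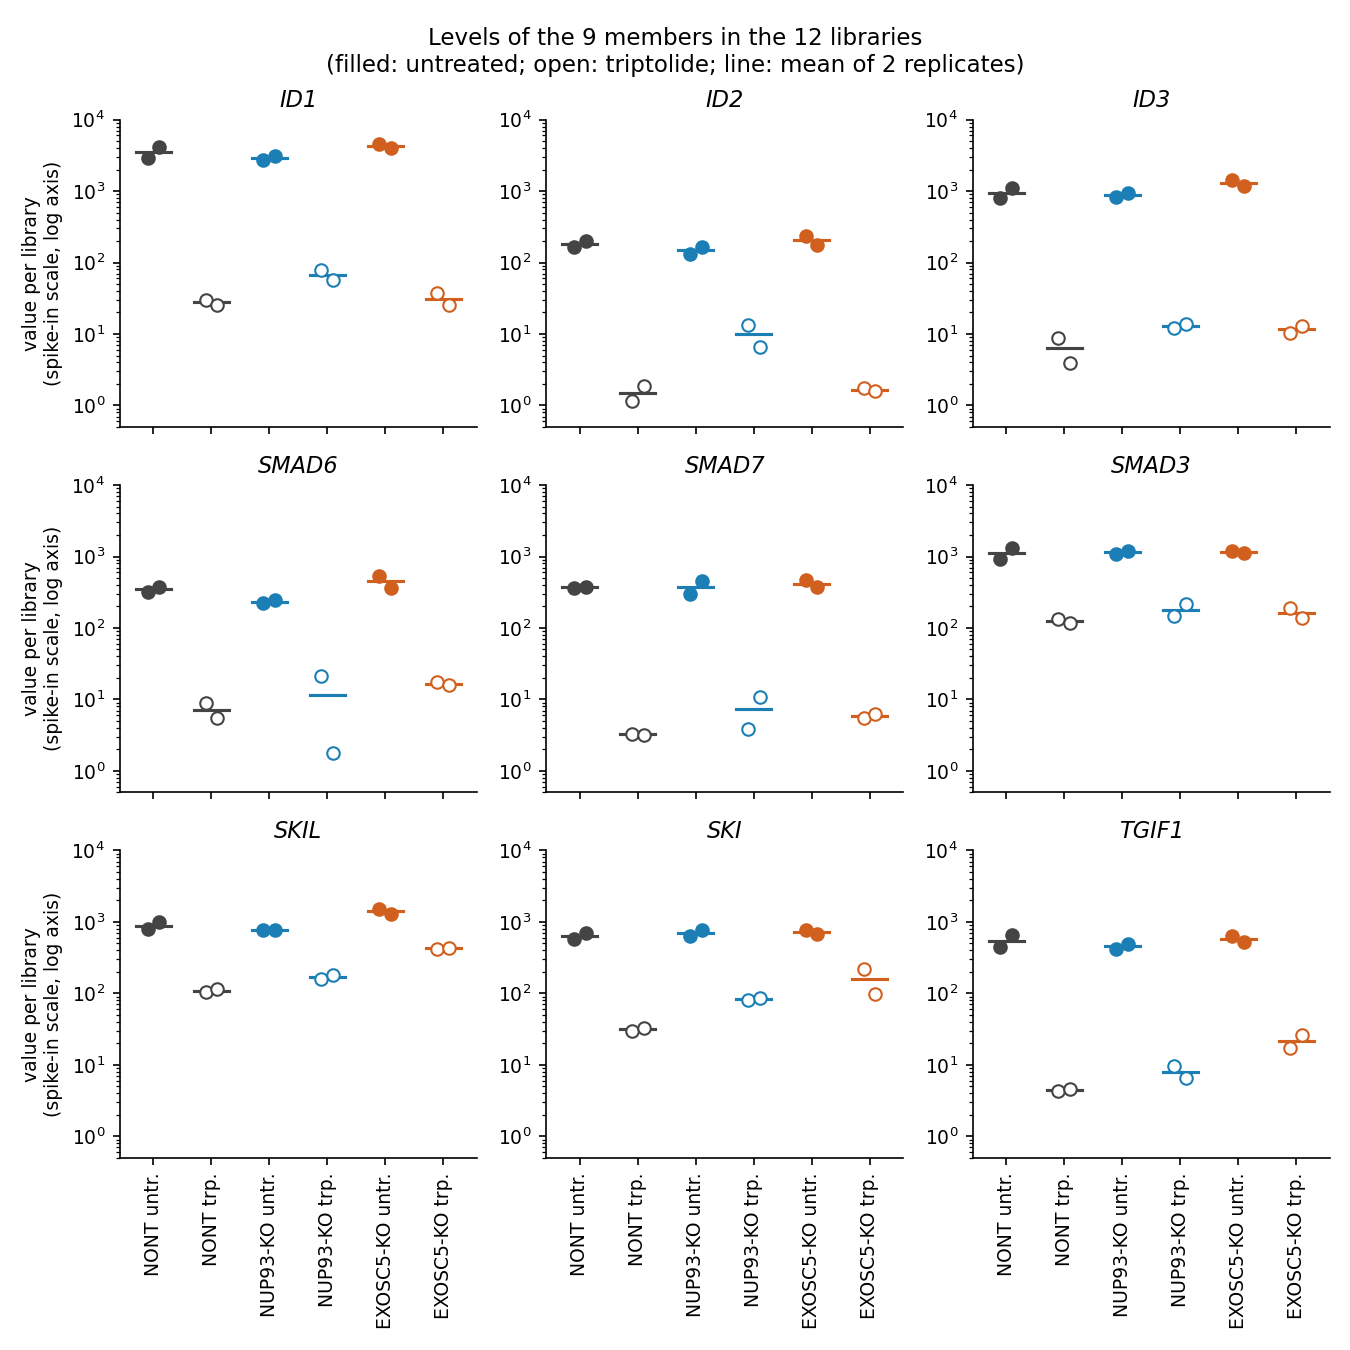
Value of each of the 9 genes in each of the 12 libraries (log axis, spike-in scale), by genotype and treatment; filled points are untreated, open points are triptolide (trp.) and lines are the mean of 2 replicates. Every open point lies below every filled point of its gene, and the open points of SMAD3 and SKIL stay above 100 while those of ID2 in NONT and EXOSC5-KO lie near 1.

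A drop as large as that of most of the 9 genes was less common than the call. Less than 5% of the untreated level was left for 7 of the 9 genes in NONT, 5 with NUP93-KO and 6 with EXOSC5-KO, against 9.30%, 4.80% and 4.76% of all genes tested. The median share left among the 9 was 0.879% in NONT, 4.89% with NUP93-KO and 3.67% with EXOSC5-KO, and the medians of all genes were 31.4%, 52.5% and 47.2%. The NUP93-KO median is the value of SMAD6, whose treated replicates were 21.0 and 1.81. On the log2 scale the 9 changed by a median of −6.20 in NONT, −4.90 with NUP93-KO and −4.69 with EXOSC5-KO, where the medians of all genes were −1.62, −0.92 and −1.08. Without the second NUP93-KO triptolide replicate the median of the 9 there was −3.41. All 9 lay below the median gene in each genotype. As log2(value + 1) is used, these changes are understated for genes that fell to low values.

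**Figure D2:**
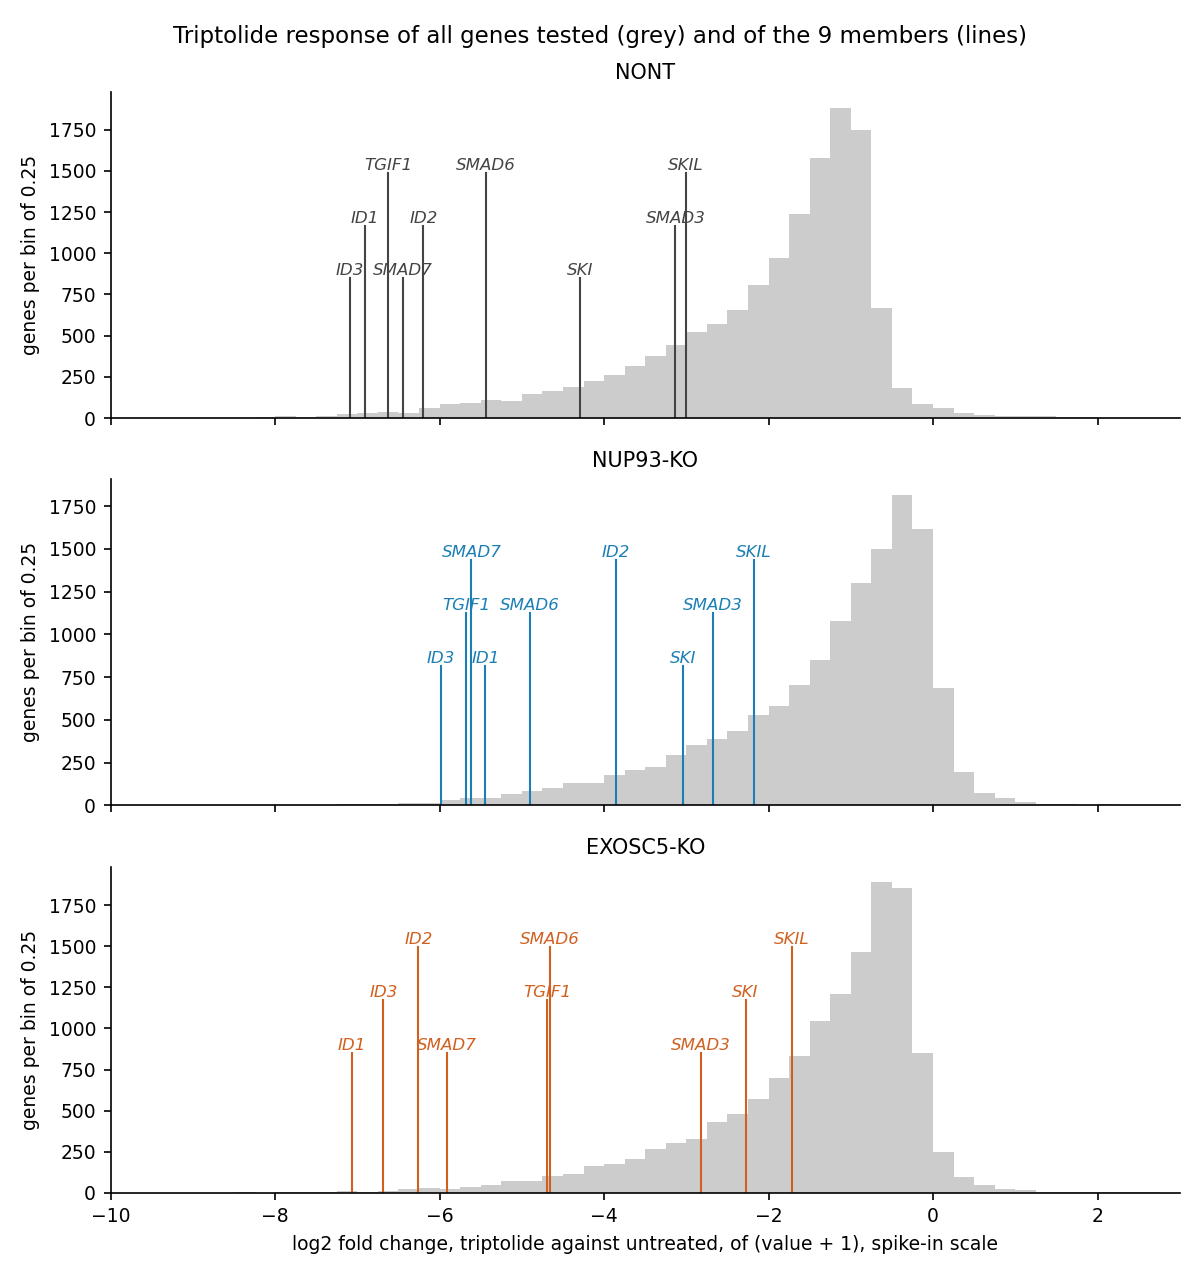
Histogram of the log2 fold change of (value + 1) between triptolide and untreated cells for the 13811 genes tested (grey, bins of 0.25), with the 9 genes as labelled lines, for each genotype. All 9 lie left of the median gene (−1.62, −0.92 and −1.08 from the top panel to the bottom), with SKIL nearest to it and ID3 or ID1 farthest.

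ID1 was the most abundant of the 9 genes in untreated cells. Its values were 2876 and 4143 in NONT, 2765 and 3080 with NUP93-KO and 4499.7 and 4011 with EXOSC5-KO. Under triptolide they were 30.1 and 25.4 in NONT, 77.5 and 56.4 with NUP93-KO and 37.4 and 25.3 with EXOSC5-KO. The treated NONT and EXOSC5-KO values overlapped, and both NUP93-KO values lay above all 4 of them. On the spike-in scale both treated NUP93-KO values lay above both treated NONT values for 75.6% of all genes. For EXOSC5-KO the share was 75.1%, and both shares apply to the genes below. ID1 kept 0.79% of its level in NONT, 2.29% with NUP93-KO and 0.74% with EXOSC5-KO. The log2 change was −6.91, −5.44 and −7.06 in that order (SE 0.26, n = 2 per group), and adjusted p in limma was 8.9e-12, 6.3e-10 and 1.9e-11. A lower log2 change was found for 0.59% of genes in NONT and for 0.20% with EXOSC5-KO. As group means, ID1 went from 3510 ± 896 to 27.8 ± 3.31 (SD, n = 2) in NONT. In bulk RNA, fewer cells that express a gene and less of its mRNA per cell cannot be told apart, here and below.

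ID2, which lies at chr2:8678845-8684461, was the lowest of the 3 ID genes. It was at 163 and 202 in untreated NONT, 134 and 167 with NUP93-KO and 232 and 177 with EXOSC5-KO. Triptolide left 1.15 and 1.87 in NONT and 1.73 and 1.59 in EXOSC5-KO, while NUP93-KO held 13.3 and 6.58. The NONT and EXOSC5-KO values stand for about 6 and 4 reads over both replicates, so the share left, 0.83% and 0.81%, has a counting interval (exact Clopper-Pearson, 95%, on approximate reads) of 0.30% to 1.82% and of 0.22% to 2.10%. In NUP93-KO 6.62% was left, with 3.93% to 9.99% over the 4 pairings of replicates. The log2 change was −6.20, −3.85 and −6.26 in the same order of genotypes as above (SE 0.48).

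ID3 (chr1:23557926-23559501) was at 807 and 1092 in untreated NONT, 824 and 938 with NUP93-KO and 1429 and 1178 with EXOSC5-KO. Under triptolide it was at 8.78 and 3.88 in NONT, 12.1 and 13.8 with NUP93-KO and 10.3 and 13.1 with EXOSC5-KO. Here both knockouts lay above both NONT values on the spike-in scale and overlapped each other. With median of ratios neither knockout had both treated values above both treated NONT values. The share left was 0.67%, 1.47% and 0.90%, and the log2 change was −7.09, −5.98 and −6.69 (SE 0.35). A second row of the table, ENSG00000283060, for which the annotation used gives no symbol, held the same values as ID3 in all 12 libraries. kallisto divides reads between identical sequences, so the level of ID3 may be spread over both rows, which would sum to 1899 in untreated NONT; the shares left are the same either way. The log2 changes depend on the added 1, and a doubled level acts as a pseudocount of 0.5 would, with which the log2 change of ID3 was −7.20 in NONT.

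Of the inhibitory SMADs, SMAD7 kept nearly as small a share as the ID genes in NONT, and SMAD6 kept more. SMAD7 (chr18:48919853-48950965) was at 367 and 371 in untreated NONT, 299 and 457 with NUP93-KO and 462 and 374 with EXOSC5-KO. Triptolide left 3.29 and 3.20 in NONT, 3.81 and 10.9 with NUP93-KO and 5.58 and 6.29 with EXOSC5-KO, which was 0.88%, 1.95% and 1.42%. On the spike-in scale all 4 treated knockout values lay above both treated NONT values, and NUP93-KO and EXOSC5-KO overlapped. The lower NUP93-KO value, 3.81, stands for about 4.4 reads, and the NONT values for about 5.5 and 6.5. With median of ratios neither knockout had both treated values above both treated NONT values. The log2 change was −6.45, −5.61 and −5.91 (SE 0.44).

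SMAD6 (chr15:66702236-66782849) was the least reproducible of the 9 genes. In untreated cells it was at 323 and 375 in NONT, 224 and 244 with NUP93-KO and 538 and 364 with EXOSC5-KO. Treated NONT held 8.91 and 5.51 and treated EXOSC5-KO 17.3 and 15.8, but the treated NUP93-KO replicates were at 21.0 and 1.81, one above and one below all the others. The share left was 2.07% in NONT, 3.67% in EXOSC5-KO and 4.89% in NUP93-KO, and in the last it ranged from 0.74% to 9.40% over the pairings of replicates. The log2 change was −5.44 in NONT, −4.90 for NUP93-KO and −4.66 for EXOSC5-KO (SE 0.63).

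SMAD3, the signal-carrying SMAD of the set, kept far more of its mRNA. It lies at chr15:67063763-67195173 on the plus strand, downstream of SMAD6. Its values were 917 and 1335 in untreated NONT, 1097 and 1187 with NUP93-KO and 1208 and 1103 with EXOSC5-KO. With triptolide they were 135 and 116, 147 and 213, and 189 and 140. The share left was 11.2%, 15.8% and 14.2%, with overlapping ranges over the pairings of replicates. The log2 change of −3.13 in NONT lay above that of 18.0% of genes, and those in NUP93-KO and EXOSC5-KO were −2.68 and −2.82 (SE 0.25).

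The corepressors SKIL and SKI also kept more, and in the knockouts most of all. SKIL (chr3:170357342-170396835) was at 786 and 996 in untreated NONT, 770 and 776 with NUP93-KO and 1515 and 1289 with EXOSC5-KO. Under triptolide NONT held 105 and 114, NUP93-KO 161 and 179 and EXOSC5-KO 418 and 433, so that the 3 genotypes did not overlap on the spike-in scale. With median of ratios the treated NUP93-KO values were not both above the treated NONT values. The share of all genes with all 3 genotypes apart was not counted. The share left was larger in the same order, at 12.3%, 21.99% and 30.4%. Group means of SKIL under triptolide were 109 ± 6.71, 170 ± 12.1 and 426 ± 10.8 (SD, n = 2). The log2 change was −3.01, −2.18 and −1.71 (SE 0.21).

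SKI (chr1:2227388-2310213) was at 569 and 706 in untreated NONT, 627 and 759 with NUP93-KO and 759 and 683 with EXOSC5-KO. After triptolide it was at 29.5 and 33.2 in NONT, 80.4 and 85.7 with NUP93-KO and 219 and 99.4 with EXOSC5-KO. The groups were again apart in that order on the spike-in scale, though the 2 EXOSC5-KO replicates differed widely. As for SKIL, the share of all genes apart in this way was not counted. SKI kept 4.92%, 11.99% and 22.05%, and its log2 change was −4.30, −3.04 and −2.28 (SE 0.31). Over the pairings of replicates the share left was 10.6% to 13.7% in NUP93-KO and 13.1% to 32.0% in EXOSC5-KO, which overlap.

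TGIF1 (chr18:3411608-3459978) fell as far as the ID genes in NONT and less far in EXOSC5-KO. Its untreated values were 447 and 652 in NONT, 424 and 488 with NUP93-KO and 638 and 517 with EXOSC5-KO. Triptolide left 4.31 and 4.63 in NONT, 9.53 and 6.52 with NUP93-KO and 17.2 and 26.1 with EXOSC5-KO, with no overlap between genotypes on the spike-in scale. How many of all genes show no such overlap was not counted. With median of ratios the treated NUP93-KO values were not both above the treated NONT values. The share left was 0.81%, 1.76% and 3.75% and the log2 change −6.63, −5.68 and −4.69 (SE 0.36).

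**Figure D3:**
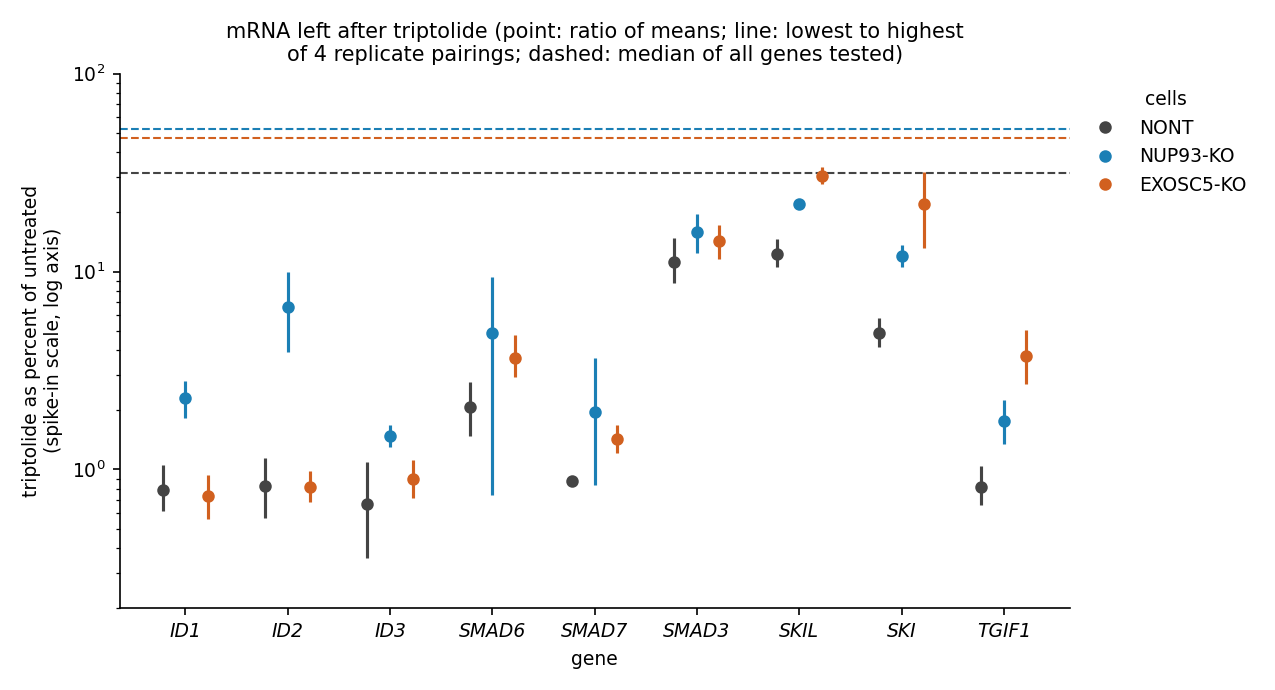
Share of the untreated level left after triptolide for each gene and genotype (percent, log axis, spike-in scale); points are ratios of group means, lines run from the lowest to the highest of the 4 pairings of replicates, and dashed lines are the medians of all genes tested. ID1 and ID2 keep more in NUP93-KO (2.29% and 6.62%) than in the other genotypes, and SKIL, SKI and TGIF1 keep most in EXOSC5-KO (30.4%, 22.05% and 3.75%). For SKI the lines of the 2 knockouts overlap.

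Compared per kb of the MANE Select transcript, which allows levels of different genes to be set side by side, ID1 led in untreated NONT with a mean of 3570.5 per kb, followed by ID3 with 999, SMAD3 with 174, TGIF1 with 173, ID2 with 140, SKIL with 125, SMAD7 with 111, SKI with 105 and SMAD6 with 91.2. With 2 replicates of each gene, the order from SMAD3 to SMAD6 was not tested. If the row identical to ID3 holds reads of the same mRNA, ID3 would stand at 1998 per kb, in the same place. After triptolide the order in NONT was ID1 at 28.3 per kb, SMAD3 at 19.4, SKIL at 15.3, ID3 at 6.67, SKI at 5.16, SMAD6 at 1.88, TGIF1 at 1.41, ID2 at 1.16 and SMAD7 at 0.97. The treated order was not tested either, and its last places rest on few reads, about 6 over both replicates for ID2. Values per kb take the MANE Select length for the whole signal of a gene. In treated EXOSC5-KO SKIL came first with 59.5 per kb, ahead of ID1 with 31.9. In treated NUP93-KO ID1 led with 68.1 per kb, followed by SMAD3 with 27.9 and SKIL with 23.8, but ID3, at 13.6 from its own row, would stand at 27.3 and above SKIL if both identical rows were summed.

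In untreated cells none of the 9 genes passed an adjusted p of 0.05 in either knockout (limma). For NUP93-KO the log2 differences from NONT ran from −0.57 for SMAD6 to 0.12 for SKI, none had an unadjusted p under 0.05 (4.20% of all genes did), and 0.0145% of all genes were called higher and 0.00724% lower (0.485% and 0.427% with median of ratios). Both NUP93-KO values lay above both NONT values for 0 of the 9 genes and 7.93% of all genes, and with median of ratios for 2 (SMAD3 and SKI) and 21.4%. For EXOSC5-KO the log2 differences ran from 0.06 for SMAD3 to 0.66 for SKIL, against a median of 0.07 over all genes. All 9 untreated means were highest in EXOSC5-KO on the spike-in scale. The difference from NONT was above 0 for all 9 there and for 59.5% of all genes. With median of ratios it was above 0 for 7 of the 9 and 46.7% of all genes. With mitochondrial mRNAs as the reference it was above 0 for 2 and 20.6%. On the spike-in scale 0.485% of genes were called higher in EXOSC5-KO and 0.0362% lower. Of the 9 genes SKIL alone had an unadjusted p under 0.05 there, as did 8.49% of all genes. Its log2 difference was 0.66 (SE 0.21, adjusted p = 0.284 in limma). Both EXOSC5-KO values of SKIL, 1515 and 1289, lay above both NONT values, as did those of ID3 and SMAD7 and as was the case for 19.2% of genes; with median of ratios the 3 genes apart were ID1, ID3 and SKIL, beside 24.1% of all genes. On 2 other scales SKIL was called higher in untreated EXOSC5-KO: the log2 difference was 0.56 with median of ratios (adjusted p = 0.0440, with 2.06% of genes called higher and 3.64% lower) and 0.63 with equal totals (adjusted p = 0.0274, with 2.79% called higher), but 0.28 with mitochondrial mRNAs as the reference (adjusted p = 0.35).

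The next comparison asks whether the response to triptolide differed between a knockout and NONT. The NONT libraries are shared by both comparisons, and with 2 replicates per group p-values measure the spread between these libraries, which may be technical. On the spike-in scale all genes tended to lose less in the knockouts: the median difference between log2 changes was 0.74 for NUP93-KO minus NONT and 0.57 for EXOSC5-KO minus NONT. For all 9 genes in NUP93-KO and for 7 in EXOSC5-KO the estimate was above 0, and so it was for 92.04% and 89.8% of all genes. No gene of the 9 passed an adjusted p of 0.05 in either comparison (limma). The background of calls was 0.76% higher and 0.0145% lower for NUP93-KO, and 0.319% higher and 0.0145% lower for EXOSC5-KO. Unadjusted p was under 0.05 for 5 of the 9 genes in NUP93-KO and for 3 in EXOSC5-KO, against 41.6% and 23.5% of all genes.

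For NUP93-KO the estimates that stood farthest above the median gene were those of the ID genes and SKI. The difference was 2.35 for ID2 (SE 0.68, 95% interval 0.92 to 3.78, adjusted p = 0.0612 in limma), which exceeded 98.4% of all genes. ID1 differed by 1.47 (0.70 to 2.23, adjusted p = 0.0586), SKI by 1.26 (0.34 to 2.18, adjusted p = 0.0732) and ID3 by 1.11 (0.06 to 2.15, adjusted p = 0.107). SKIL differed by 0.83 (adjusted p = 0.0745), close to the median gene. With median of ratios, where the median gene is at 0, the differences were 1.90 for ID2, 0.74 for ID1, 0.53 for SKI, 0.46 for ID3 and 0.08 for SKIL, and the lowest adjusted p of the 9 was 0.377. Without the first NONT untreated replicate 4 genes were called higher (ID1, ID2, SKIL and SKI), and without the first NONT triptolide replicate 2 were (ID1 and ID3).

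For EXOSC5-KO it was the 3 transcriptional corepressors that stood farthest above the median gene. SKI differed by 2.02 (SE 0.44, 95% interval 1.10 to 2.94, adjusted p = 0.0665 in limma), above 97.3% of genes. TGIF1 differed by 1.93 (0.86 to 3.003, adjusted p = 0.113) and SKIL by 1.29 (0.68 to 1.91, adjusted p = 0.0725). For the ID genes the difference was −0.15 for ID1 (−0.92 to 0.61), −0.06 for ID2 (−1.49 to 1.37) and 0.40 for ID3 (−0.64 to 1.44), all below the median gene. With median of ratios SKI differed by 1.47, TGIF1 by 1.49, SKIL by 0.73 and ID1 by −0.71, and the lowest adjusted p was 0.295. SKI was called higher when the second EXOSC5-KO triptolide replicate, the lower of its pair, was left out (log2 difference 2.58, adjusted p = 0.0103), and SKI, SKIL and TGIF1 were called without the first NONT untreated replicate.

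**Figure D4:**
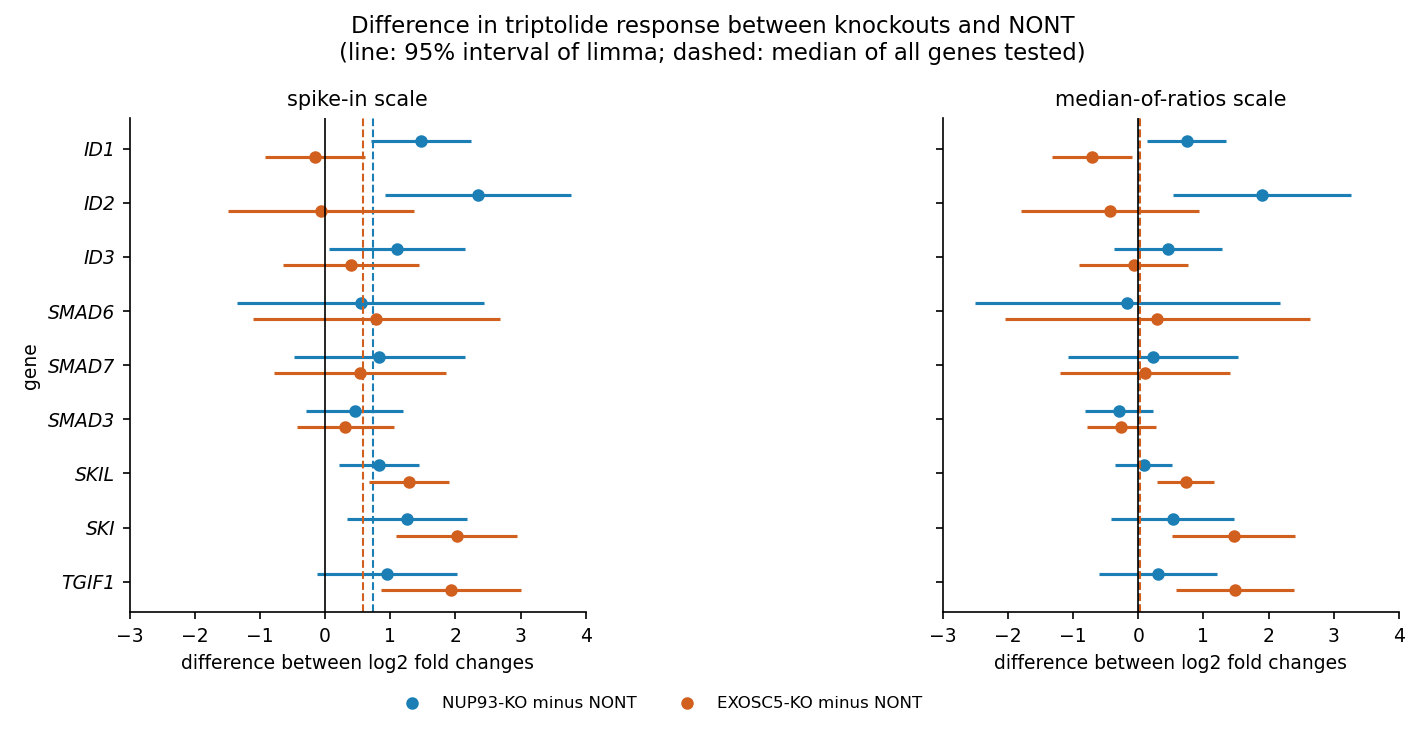
Difference between the log2 response to triptolide in a knockout and in NONT for each gene, on the spike-in scale (left) and with median of ratios (right); points are limma estimates, lines their 95% intervals, dashed lines the medians of all genes (0.74 and 0.57 at left, near 0 at right). ID1 and ID2 lie right of the dashed line for NUP93-KO and left of it for EXOSC5-KO, and SKI, SKIL and TGIF1 lie right of it for EXOSC5-KO.

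Set directly against each other, the 2 knockouts differed most for ID1 and ID2. The log2 response of ID1 was lower in EXOSC5-KO than in NUP93-KO by −1.62 (95% interval −2.39 to −0.85, adjusted p = 0.308 in limma) and that of ID2 by −2.41 (−3.84 to −0.98, adjusted p = 0.578), and 2.39% and 0.87% of genes had a lower estimate. Neither passed the test across all genes, in which 0.00724% of genes were called higher and 0.0145% lower, or 0.0362% and 0.0217% with median of ratios. Of the 9 genes 2 had an unadjusted p under 0.05, against 4.32% of all genes. For the other 7 the 95% intervals on the spike-in scale included 0, and they reached from −1.75 for ID3 to 2.14 for SMAD6. With median of ratios 4 of the 9 had an unadjusted p under 0.05, against 9.33% of all genes: beside ID1 and ID2 these were SKIL, at 0.65 (95% interval 0.21 to 1.09, adjusted p = 0.379 in limma), and TGIF1, at 1.18 (0.27 to 2.09, adjusted p = 0.428), both higher in EXOSC5-KO. With equal totals SKI was also among them, and the count was 5 against 9.80% of all genes; with mitochondrial mRNAs as the reference it was 4 against 4.51%.

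In treated cells both NUP93-KO values lay above both NONT values for 8 of the 9 genes, all but SMAD6, and for 75.6% of genes. Both EXOSC5-KO values did so for 7, all but ID1 and ID2, and for 75.1% of genes. With median of ratios the count was 3 for NUP93-KO (ID1, ID2 and SKI) against 23.4% of genes, and 4 for EXOSC5-KO against 26.4%. Such separation was thus common among all genes on the spike-in scale. Whether the counts among the 9 differ from the shares of all genes was not tested.

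The other genes of the pathway were taken from 8 lists with 76 entries, of which 75 were in the table and 70 were tested. In NONT all 70 were called lower with triptolide on the spike-in scale, so what varies between the lists is how far they fell. The median log2 change in NONT was −3.57 for the 5 signal-transducing SMADs, −3.25 for 8 nuclear cofactors, −2.56 for 12 TGF-beta target genes, −2.18 for 11 ubiquitin ligases and related enzymes, −2.01 for 10 ligands, −1.81 for 11 receptors, −1.75 for ID4 and the 3 E proteins and −1.36 for 9 extracellular antagonists, beside −6.20 for the 9 feedback and ID genes and −1.62 for all genes. With median of ratios 4 of the SMADs, 5 of the cofactors, 6 of the target genes, 6 of the enzymes, 4 ligands, 5 receptors, 1 of the ID4 and E protein list and 2 antagonists were called lower in NONT, where 30.3% of all genes were, and 4 antagonists, 3 target genes, 3 enzymes, 2 ligands, 1 receptor and 1 cofactor were called higher, where 27.2% were.

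**Figure D5:**
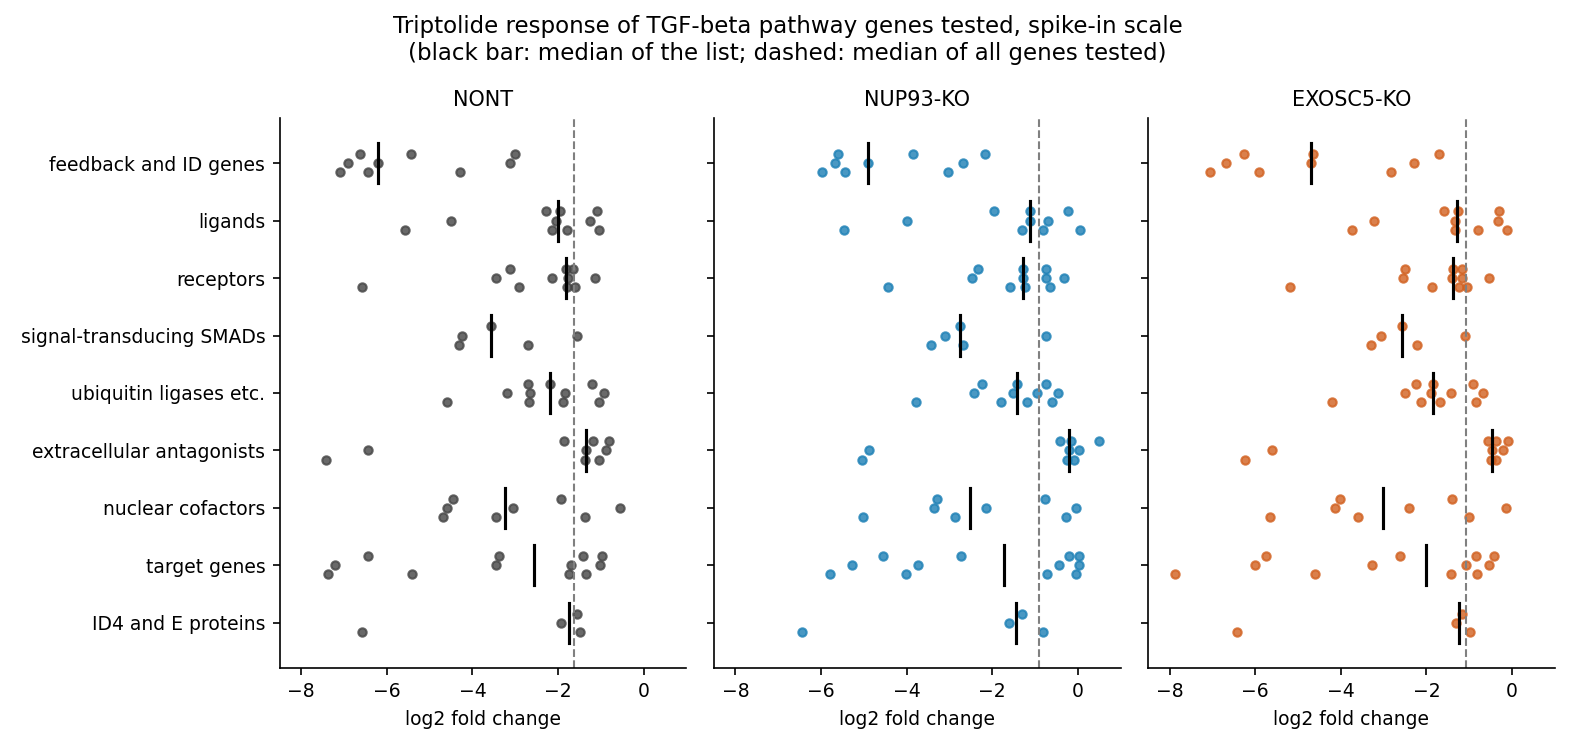
Log2 change of (value + 1) with triptolide for each tested gene of the 9 lists in each genotype (spike-in scale); black bars are list medians and dashed lines the medians of all genes. The feedback and ID genes have the lowest median in each genotype (−6.20, −4.90 and −4.69), and single genes of other lists (BAMBI, SNAI2, ACVR2A, ID4) lie as low; BAMBI and SNAI2 are listed at 0 in treated NONT, so their points depend on the added 1.

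Among the extracellular antagonists, 6 of 9 lay above the median gene, and the drops ranged widely. BAMBI, a pseudoreceptor that TGF-beta and BMP signals induce, was at 145 and 204 in untreated NONT and was listed at 0 in both treated NONT libraries. NOG, the secreted BMP antagonist noggin, went from 1068 and 1520 to 19.9 and 9.29 (log2 change −6.44), while TWSG1 and FSTL1, other secreted BMP modulators, kept 56.5% and 53.1% (log2 changes −0.81 and −0.88). ID4, the fourth ID gene, went from 172 and 265 to 2.41 and 0.49, a log2 change of −6.57. The E proteins that ID proteins bind kept far more: TCF3 34.1% (log2 change −1.55), TCF4 36.0% (−1.48) and TCF12 25.5% (−1.94).

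Of the SMADs that carry the signal, SMAD1 and SMAD4, a BMP SMAD and the common partner, had log2 changes of −4.31 and −4.24 in NONT. SMAD2, which carries TGF-beta signals along with SMAD3, had −1.56 and SMAD9, another BMP SMAD, −2.70. The receptor genes ACVR2A and BMPR1A had −6.57 and −3.12, and BMPR2 and the co-receptor ENG −1.60 and −1.14. Among ligands BMP4 and BMP2 had −5.58 and −4.50, and TGFB1 and GDF11 −1.03 and −1.09. The ubiquitin ligases RNF111 (Arkadia, which marks SMAD7 and SKIL protein for degradation) and TRIM33 had −4.59 and −3.18, and the deubiquitinases USP4 and UCHL5 −0.93 and −1.04.

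Among nuclear cofactors, the corepressor scaffold SIN3A and the acetyltransferase EP300 had log2 changes of −4.69 and −4.59 in NONT, and the corepressor genes HDAC1 and NCOR1 −0.55 and −1.38. Of the target genes, SNAI2, which encodes the transcription factor Slug, was at 138 and 195 in untreated NONT and listed at 0 in treated NONT. JUNB, an AP-1 subunit, went from 455 and 657 to 3.01 and 2.44 (log2 change −7.20), while TIMP1, a metalloproteinase inhibitor, kept 49.0% (−1.01).

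CCN2 (connective tissue growth factor) was the 1 list gene whose response differed between genotypes at an adjusted p under 0.05. It was at 4418 and 6485 in untreated NONT and 4865 and 5151 in NUP93-KO, and at 140 and 113 and at 303 and 311 with triptolide. Both treated NUP93-KO values were above both treated NONT values. The difference between the log2 changes was 1.38 (SE 0.29, adjusted p = 0.0446 in limma) beside a median of 0.74 over all genes, and with median of ratios it was 0.63 (adjusted p = 0.0683).

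The genes whose pattern was most like that of each of the 9 were found by the root mean square difference of log2(value + 1), each gene centred on its own mean, over the 12 libraries and 11667 genes with an untreated mean of at least 50. This measure rests largely on the drop with triptolide, and the genes share the same libraries. For ID1 they were NFIL3 (0.32) and ZNF281 (0.37), for ID2 PLK2 (0.35) and KLF6 (0.38), for SMAD6 TICAM1 (0.43) and IQCC (0.44), and for SMAD7 FRAT2 (0.30) and TRIM11 (0.34). For SMAD3 they were EPHB4 (0.12) and CKAP2 (0.15), for SKIL BICD1 (0.19) and TRIM8 (0.19), for SKI TSSC4 (0.21) and ZNF180 (0.25), and for TGIF1 TRIM32 (0.22) and CCDC71 (0.22). ID3 was closest to its identical row ENSG00000283060 and next to CSRNP1 (0.35). Within the set, ID1 and ID3 were nearest to each other (0.40), SMAD7 was nearest to ID3 (0.46), SMAD3 and SKI to each other (0.59) and SKIL to SKI (0.61).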

How the data were processed

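The authors sequenced poly(A)-selected, strand-specific libraries and pseudoaligned them with kallisto 0.46.1 (GRCh38, per the labels); per the study's methods, transcripts were summed per gene with tximport, the authors took DESeq2 size factors from the 92 ERCC transcripts and kept protein-coding genes. The deposited values are thus a spike-in-normalised signal per gene, not read counts. Of the lowest values 24.7% to 30.6% were whole multiples of 1 read (tolerance 0.02), so whole reads were not recovered and depths are approximate.

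The 13811 genes with an untreated mean of at least 10 were analysed as log2(value + 1) with limma 3.58.1 (R 4.3.3; 6 group means over all 12 libraries, variance trend, Benjamini-Hochberg adjustment over all genes); 8 contrasts were fitted. Groups and replicate numbers came from the sample labels. The fit was tested on simulated data. Symbols came from GENCODE release 44: 19584 IDs matched and 2795 did not. Among the genes tested, 474 rows were identical to another row in every library. Named genes of the lists were those with an untreated mean of at least 100 and the 2 largest and 2 smallest falls in NONT, plus any past the threshold in a knockout contrast; a gene this rule picked among the target genes is not reported here. For each of the 9 genes the 2 most similar genes were named. The 9 genes and all lists were chosen with earlier results of these data known. Alternatives were pseudocounts, filters, scales, variance models, subsets of libraries and a replicate block; counting identical rows once was added after seeing the data. Floors and intervals cover counting error only.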

Additional observations from a re-analysis of the deposited data

Results flagged for a closer look

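The response of CCN2 to triptolide differed between NUP93-KO and NONT by 1.38 on the log2 scale (SE 0.29, adjusted p = 0.0446 for the interaction term in limma), with less lost in NUP93-KO. The estimate stayed above 0 under all 23 alternatives, but the adjusted p ran from 0.0034 to 0.685 and missed 0.05 in 17 of them. Without the second NONT untreated replicate the difference was 1.10 (adjusted p = 0.122 in limma), and with median of ratios 0.63 (adjusted p = 0.0683). No group of 4 or more samples was present, so single libraries were not examined for extreme values.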

How the results depend on the processing

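All 9 genes were called lower with triptolide in each genotype under all 23 alternatives. In the untreated comparison of EXOSC5-KO the count of the 9 genes called went from 0 to 1 (SKIL) with equal totals and to 1 with median of ratios. For the difference in response of NUP93-KO and NONT it was 0, and 1 (ID1) with an untreated mean of at least 50. For EXOSC5-KO and NONT it was 0, and 1 (SKI) with that filter and 1 (SKI) with only the groups compared. Leaving out each replicate in turn gave 0 to 4 genes in the NUP93-KO comparison and 0 to 3 in that of EXOSC5-KO, with both highest counts without the first NONT untreated replicate; SKI alone was called for EXOSC5-KO without the first NONT triptolide replicate, without either NUP93-KO triptolide replicate and without the second EXOSC5-KO triptolide replicate. The cause was not tested. With a replicate block the counts were 9 in each response and 0 in each other comparison, so no call of the 9 genes changed; that of CCN2 was lost (adjusted p = 0.056 in limma). Deviations of same-numbered replicates correlated by −0.051 to 0.037 over 15 pairs of groups, so the numbers were not taken to pair libraries. Some genes that fell less than the median gene turned sign in NONT with the total or the median gene set to no change. With equal totals and with median of ratios, the log2 change was 0.31 and 0.62 for TGFB1, 0.24 and 0.56 for GDF11, 0.20 and 0.51 for ENG, 0.40 and 0.72 for USP4, 0.30 and 0.61 for UCHL5, 0.53 and 0.84 for TWSG1, 0.46 and 0.77 for FSTL1, 0.79 and 1.10 for HDAC1 and 0.33 and 0.64 for TIMP1. Each of these genes was called higher with median of ratios (adjusted p under 0.05 in limma), as were 27.2% of all genes. With median of ratios alone the log2 change was 0.055 for BMPR2, 0.085 for SMAD2, 0.27 for NCOR1, 0.17 for TCF4 and 0.10 for TCF3. None of the latter was called there. The levels of ID2 in treated NONT and EXOSC5-KO rest on about 6 and 4 reads and are limited by depth.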
